A study of Homo sapiens with 6 samples.

Results

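Of the 35130 regions in the authors' deposited table of reduced representation bisulfite sequencing (RRBS), 3231 lay far from any coding gene. These were the autosomal regions with at least 5 measured sites that were more than 50000 bases from the span of every protein-coding RefSeq gene, out of 33772 autosomal regions with at least 5 sites. The other 30541 autosomal regions of that size lay inside a coding gene or within 50000 bases of one. The 3231 regions were picked from that table by distance and number of sites, and not by methylation. Whether methylation entered into where the authors drew each boundary was not tested.

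The DNA came from M07e, an established line of acute megakaryoblastic leukemia cells, grown in RPMI-1640 with fetal bovine serum and GM-CSF. Controls carried the line's own genotype, labelled WT (3 libraries), and the other group was the same line with a CRISPR knockout of DNMT3B (3 libraries). Both groups were grown, cut with MspI, converted with bisulfite and amplified by the same stated protocols, and the comparison asked how loss of DNMT3B changed methylation. The labels do not say whether the 3 libraries of a group were separate cultures, or whether the knockout was 1 clone or several, and only 1 cell line was used. The table gives 1 mean per group and region, in percent, so no value below has a replicate error, single libraries cannot be shown, read depth is unknown, and cell type markers cannot be checked. The knockout column is named M07e_3883, a name in no label. It was read as the knockout because it is the only column beside the control's, and every direction below rests on that reading.

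DNMT3B is a de novo DNA methyltransferase: it adds methyl groups to cytosines of CpG dinucleotides that carry none, whereas DNMT1 copies existing marks after replication. Between genes, most scattered CpGs of normal tissue are methylated and dense CpG islands are not, and such islands often lie at the starts of non-coding RNAs or near distant enhancers of developmental genes. DNMT3B is also known for methylating the satellite repeats beside centromeres, which lose methylation in people who lack its function. RRBS reads fragments that begin and end at MspI sites (CCGG, the same on both strands), so even far from coding genes it samples mainly CpG-rich stretches.

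Sequence was at hand for members that fell in the window from 250 bases before to 50 bases after the start of a non-coding RefSeq gene. There were 83 such members in 85 windows, and they are the members whose base composition can be read directly. The windows held a median of 23 CpGs and 64.7% G or C, and 84 of them (98.8%) held CCGG. Over all 12917 lncRNA windows of the same length the medians were 5 CpGs and 50% G or C, and 44.5% held CCGG. Over all 35116 promoter windows, they were 14 CpGs and 58.7%, with CCGG in 63.1%. The choice of CCGG fragments by the assay fixes part of that contrast. Of the 14 windows that hold a called member, 5 are printed from RefSeq (GRCh38.p14, the hg38 build) because they show starts at which the group means differed, in both directions. Of these, the window of LOC105372120 is the poorest in CpGs, with 10, and that of LOC105372969 the richest, with 43. Each reads 5′ to 3′ on the strand of the named gene. Capitals mark the called member from its first to its last measured site, as far as it lies in the window. The member at LOC105372969 extends beyond its window.
LINC01626 (chr6:71420777-71421076, plus strand): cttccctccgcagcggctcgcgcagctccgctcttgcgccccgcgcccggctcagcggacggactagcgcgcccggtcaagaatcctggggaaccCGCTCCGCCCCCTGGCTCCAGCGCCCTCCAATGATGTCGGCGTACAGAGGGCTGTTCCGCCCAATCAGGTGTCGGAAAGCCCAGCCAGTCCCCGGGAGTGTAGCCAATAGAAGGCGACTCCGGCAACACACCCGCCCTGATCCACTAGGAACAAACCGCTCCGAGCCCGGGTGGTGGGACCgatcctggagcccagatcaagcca
LOC105378453 (chr10:101284209-101284508, plus strand): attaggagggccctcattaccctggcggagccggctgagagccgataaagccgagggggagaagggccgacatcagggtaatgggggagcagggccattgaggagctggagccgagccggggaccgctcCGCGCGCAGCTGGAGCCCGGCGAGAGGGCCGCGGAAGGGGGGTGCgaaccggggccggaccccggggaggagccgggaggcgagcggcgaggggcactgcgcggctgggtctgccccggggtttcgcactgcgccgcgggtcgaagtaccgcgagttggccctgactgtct
LOC105372120 (chr18:51656384-51656683, minus strand): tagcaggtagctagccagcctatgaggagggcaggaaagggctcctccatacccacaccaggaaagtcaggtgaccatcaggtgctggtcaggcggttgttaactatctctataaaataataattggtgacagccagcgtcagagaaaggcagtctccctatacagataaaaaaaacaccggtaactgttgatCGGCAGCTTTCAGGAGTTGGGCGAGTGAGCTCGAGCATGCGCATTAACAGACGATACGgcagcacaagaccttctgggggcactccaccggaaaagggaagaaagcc
LINC02848 (chr7:63900590-63900889, plus strand): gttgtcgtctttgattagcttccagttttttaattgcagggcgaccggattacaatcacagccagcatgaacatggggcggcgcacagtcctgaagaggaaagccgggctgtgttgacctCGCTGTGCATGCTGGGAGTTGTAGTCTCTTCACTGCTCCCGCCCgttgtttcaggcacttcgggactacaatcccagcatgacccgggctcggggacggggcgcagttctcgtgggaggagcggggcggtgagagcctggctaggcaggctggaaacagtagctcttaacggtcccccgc
LOC105372969 (chr22:25282626-25282925, minus strand): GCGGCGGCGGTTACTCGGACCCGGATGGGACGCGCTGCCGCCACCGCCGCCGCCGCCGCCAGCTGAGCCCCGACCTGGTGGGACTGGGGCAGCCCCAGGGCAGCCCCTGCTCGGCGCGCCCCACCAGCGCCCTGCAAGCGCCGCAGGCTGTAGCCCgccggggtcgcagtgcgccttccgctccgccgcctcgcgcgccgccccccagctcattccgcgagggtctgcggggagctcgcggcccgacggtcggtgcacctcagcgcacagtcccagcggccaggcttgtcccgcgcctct
The windows also show what a site is. In the 2463 regions of the whole table that lie inside a window, the number of sites never exceeded the cytosines of CpGs on both strands, and in 1882 it exceeded the number of CpG pairs. A region of 5 sites can therefore hold 3 CpG pairs.

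At the shared start of LINC01626 and LINC00472, a pair of lncRNAs transcribed away from each other, the 16 sites at chr6:71420872-71421052 had a control mean of 60.6% and a knockout mean of 21.3% (q = 0.0029 in the authors' deposited table). The members on either side in these windows were higher in the knockout and were not called. They had 0 and 28.9% at chr6:71420648-71420719, and 13.3% and 32.2% at chr6:71421053-71421097. The 15 sites at the start of LOC105378453, between LBX1 and BTRC, were methylated to 55.4% in control cells and to 13.02% without DNMT3B (q = 0.00014). LBX1 is a homeobox factor of muscle precursors and spinal cord neurons. At LOC105372120, 458752 bases from the nearest coding gene in the interval between MEX3C and the netrin receptor gene DCC, 12 sites went the other way, from 45.8% to 98.9% (q = 0.000738). At LINC02848, 5 sites went from 28.9% to 75.8% (q = 0.0015), and at LOC105372969, between the lens crystallin gene CRYBB2 and the G protein-coupled receptor kinase gene GRK3, 37 sites had 11.6% and 40.1% (q = 0.000496). Of the 83 members in windows, 12 were called (14.5%), 7 higher and 5 lower in the knockout, with medians of 10.9% in the control and 31.1% in the knockout. A call here is a q under 0.01 and a difference of at least 25 percentage points in the authors' deposited table, and 6.74% of all 35130 regions were called by that rule. The remaining called starts included LOC124904173, beside the forkhead gene FOXD2, which had 36.4% in the control and 0.667% in the knockout, and LINC01415, between TCF4 and TXNL1, which had 23.9% and 60.3%.

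Across the 3231 members, the median group mean was low in the control and intermediate in the knockout. The median was 12.4% in the control (quartiles 0 and 33.3%) and 32.3% in the knockout (quartiles 23.8% and 46.1%), and the median difference was 23.7 points. For the other 30541 autosomal regions the medians were 6.90% and 30.7%, with a median difference of 16.7 points. The knockout mean was the higher in 2350 members (72.7%) and in 68.0% of the other regions. A smaller share of members than of other regions was low in the control, with 1503 members under 10% (46.5%, against 54.1%). The knockout share under 10% was 14.2% (460 members) against 29.0%. Highly methylated members were few in both groups: 142 were at 75% or more in the control (4.39%) and 214 in the knockout (6.62%). No test was made of these differences between sets of regions, since regions are not replicates of a condition.

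Most members that were low in the control did not stay low. Of 3231, 1347 (41.7%) had under 10% in the control and 10 to 75% in the knockout, a class that held 36.1% of all regions. Of these 1347, 28 were called, against 490 of the 12675 in that class over all regions. A further 150 (4.64%) were under 10% in both, a class that held 17.1% of all regions. Another 1124 (34.8%, against 29.4% of all regions) were between 10 and 75% in both groups. Movement into the high range came from intermediate levels in 153 members (4.74%, against 3.99% of all regions) and from the low range in 6. Of the 153, 38 were called, against 502 of 1401 over all regions, and of the 6 none was called. Loss from 75% or more ended between 10 and 75% in 86 members (2.66%, against 1.77% of all regions) and under 10% in 1. Of the 86, 17 were called, against 164 of 621 over all regions. In both groups 55 members were at 75% or more (1.7%, against 1.13%).

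**Figure D1:**
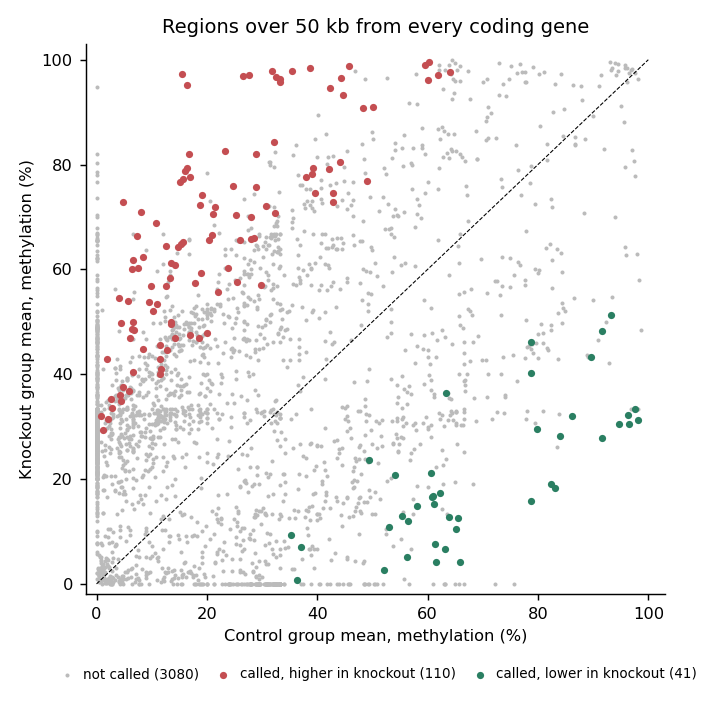
Each point is 1 region far from coding genes, with the control group mean on the horizontal axis and the knockout group mean on the vertical axis, both as percent methylation; filled colours mark called gains and losses. Points crowd along a control mean of 0 and along a knockout mean near 33%, and the 110 called gains and 41 called losses lie away from the diagonal.

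A single combination of values was common. In 820 members (25.4%) the control mean was exactly 0 and the knockout mean between 25 and 33.3%, and none of these was called. In the authors' deposited table every member with a group mean of 0 (1225, or 37.9%) had a Kolmogorov-Smirnov p of 1 and a q of 1, so none of them could be called, whatever its difference. Of these members 1078 differed by at least 25 points, and 181 of those had a Mann-Whitney p under 0.01. The same combination held 20.8% of the other regions. The mirror image, a knockout mean of 0 with a control mean between 25 and 33.3%, held 101 members (3.13%). Without both kinds, 2310 members remained, with a median difference of 16.4 points against 3.33 points in the other regions treated alike, and 6.54% of them were called against 9.21%. Knockout means between 30 and 33.3% were found in 859 members, of which 8 were called. The median difference of the members thus rested in part on this combination, and what produced it was not tested.

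Of the members, 151 were called (4.67%), 110 higher in the knockout (3.40%) and 41 lower (1.27%). The background over all 35130 regions was 6.74%, with 4.57% higher and 2.17% lower, and among the other autosomal regions it was 7.1%, with 4.79% higher and 2.31% lower. The members' shares were below both in each direction. Among the 2006 members with both means above 0, 7.53% were called, against 9.74% of all regions and 10.2% of the other autosomal regions with both means above 0. Shares called below are of all members of a class and include those with a mean of 0. Gains made up 72.8% of the called members and 67.5% of the other called regions. The called gains had a median of 16.9% in the control and 65.9% in the knockout over a median of 8 sites, and their differences ran from 27.1 to 81.7 points. The called losses went from a median of 63.9% to 17.4%, also over 8 sites, with differences from -25.7 to -66.8 points. The authors' p-values behind these calls include values below 0.1, the smallest that a rank test of 3 libraries against 3 can give, so they count something other than whole libraries and do not measure the spread between libraries.

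The number of sites went with the share called. Among members with 5 to 9 sites, 84 of 2607 were called (3.22%), among those with 10 to 19 sites 44 of 549 (8.01%), and among those with 20 or more 23 of 75 (30.7%). In the other regions the shares in the same classes were 4.24%, 12.2% and 38.4%, each above that of the members. With 20 or more sites, 22 of the 23 called members were higher in the knockout, and the medians of the 75 members were 4.52% in the control and 33.0% in the knockout. In the other regions of that class, 369 of 472 called ones were higher (78.2%), and the medians were close, at 4.75% and 32.9%. Members were also slightly less CpG-dense than the other regions, with a median of 11.1 sites per 100 bases against 12.8, at a median of 6 sites in both.

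**Figure D2:**
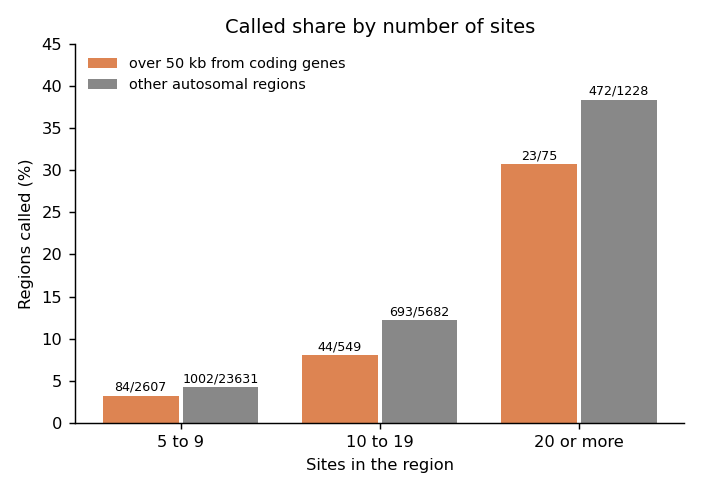
Bars give the percent of regions called in each class of site number, for regions far from coding genes and for the other autosomal regions, with counts above the bars. The share rises with the number of sites in both, from 3.22% to 30.7% and from 4.24% to 38.4%.

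The members lay a median of 139970 bases from the nearest coding gene (range 50016 to 5002443) and only 4794 bases from the nearest non-coding gene. The coding genes on either side of a member were a median of 591271 bases apart. With distance, the control median rose from 6.53% inside coding genes and 7.02% within 5000 bases to 11.5% between 5000 and 50000 bases, and was 12.5% at 50000 to 200000 bases and 12.2% beyond. The knockout median was 31.1% inside coding genes, 23.2% within 5000 bases, 31.7% at 5000 to 50000 bases, 32.1% at 50000 to 200000 bases and 32.6% beyond. The share called was 7.32%, 7.44%, 5.56%, 4.78% and 4.49% in that order. Beyond 1000000 bases 8 of 142 members were called (5.63%), with medians of 7.87% and 33.1%. The change in levels and in share called with distance was thus already present in the class from 5000 to 50000 bases.

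**Figure D3:**
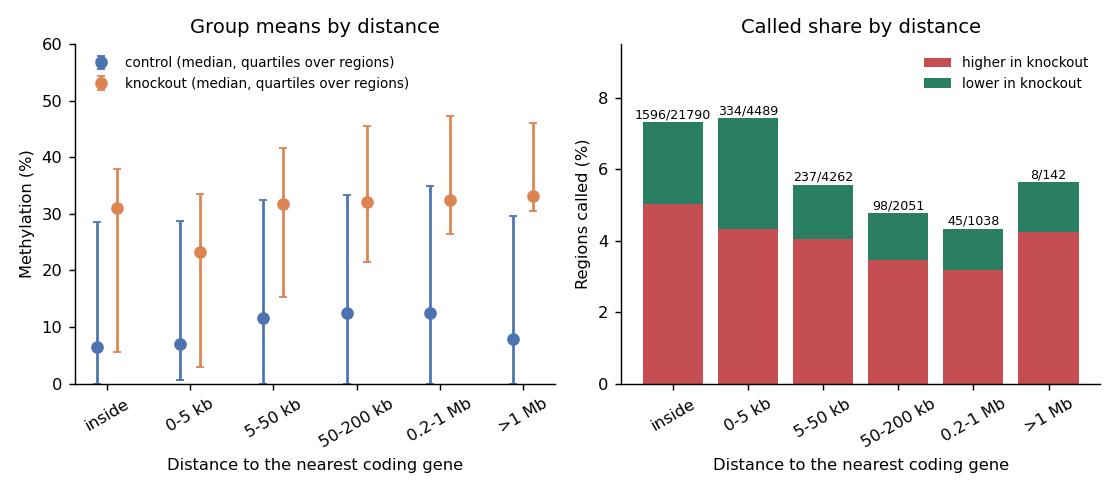
The left panel gives the median methylation of the control and knockout group means with their quartiles, in percent, by distance to the nearest coding gene, and the right panel the percent of regions called. Control medians step up beyond 5000 bases, from 7.02% to 11.5%, while the share called falls from 7.44% to 5.56% and is 4.49% beyond 200000 bases.

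Values on either side of the distance threshold overlapped. The 3 members just inside, at 50016, 50081 and 50123 bases, had control means of 1.67%, 8.0% and 0 and knockout means of 4.99%, 32.2% and 32.4%. The 3 regions just outside, at 49966, 49954 and 49939 bases, had control means of 0, 30.4% and 0 and knockout means of 29.2%, 47.1% and 33.3%. At the threshold of 25 points, the called members nearest to it differed by -25.7, -25.9 and -26.9 points. The nearest members left out differed by -24.9, 24.6 and -24.5 points in the authors' deposited table.

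The largest gain was found at chr16:81160824-81160868, inside PKD1L2, a polycystin relative annotated as a transcribed pseudogene, 64429 bases from GCSH, a gene of glycine breakdown. Its 6 sites went from 15.6% to 97.3% (difference 81.7 points, q = 2.7e-05 in the authors' deposited table). The next was at chr15:95326961-95327015, inside the lncRNA gene LETR1 and 843009 bases from the nearest coding gene, in the interval before NR2F2, an orphan nuclear receptor of vein and lymphatic development. Its 16 sites went from 16.5% to 95.2%, with the smallest q of any member, 5.13e-11. At chr11:69471639-69471738, between MYEOV and the cyclin D1 gene CCND1, 20 sites went from 4.76% to 72.8% (q = 3.26e-10). These 3 were nearly unmethylated to lightly methylated in the control and mostly methylated in the knockout.

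The other 7 of the 10 largest gains started between 16.5% and 33.3% in the control. At chr10:128982354-128982380, between the proliferation antigen gene MKI67 and the DNA repair gene MGMT, 7 sites went from 26.5% to 96.9%. At chr15:23803148-23803185, between the imprinted gene NDN and NPAP1 in the Prader-Willi region, 5 sites went from 27.6% to 97.0%. At chr8:43567500-43567529, on the centromeric side of POTEA, 8 sites went from 31.8% to 97.9%. At chr6:8282514-8282547, between EEF1E1 and SLC35B3, 8 sites went from 16.7% to 82.0%. At chr14:86080449-86080467, in the lncRNA gene LINC02328 between the adhesion gene FLRT2 and GALC, 5 sites went from 32.4% to 96.7%. At chr11:134524116-134524147, beyond B3GAT1, the last coding gene of the chromosome, 7 sites went from 33.3% to 96.4%. At chr20:29690497-29690560, 1122867 bases from a coding gene, 13 sites went from 16.5% to 79.3%. Of the 10, 7 ended at 95% or more in the knockout. Control means of 31.8%, 32.4% and 33.3% can likewise come from a single methylated library or from all 3, which group means cannot tell apart.

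The largest loss was at chr7:84880577-84880597, between the semaphorin genes SEMA3A and SEMA3D, whose products guide axons and vessels. Its 5 sites went from 98.1% to 31.3% (difference -66.8 points, q = 0.00314 in the authors' deposited table). At chr18:65605409-65605459, between SERPINB8 and the cadherin gene CDH7, 6 sites went from 96.5% to 30.6%. At chr16:86701791-86701799, on the far side of the forkhead gene FOXL1, 5 sites went from 83.1% to 18.2%. The control means of the 10 largest losses ran from 65.8% to 98.1%.

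Another 5 of the losses had 5 to 8 sites each and control means over 82%. At chr4:22778926-22778977, in GBA3 between ADGRA3 and the metabolic coactivator gene PPARGC1A, 8 sites went from 96.3% to 32.1%. At chr2:242019444-242019479, in LINC01237 near the end of the chromosome, 5 sites went from 91.6% to 27.9%, and at chr12:127826325-127826358, before TMEM132C, 7 sites went from 82.3% to 19.05%. At chr20:30922187-30922210, 107095 bases from LOC124904970 and 335454 from the defensin gene DEFB115, 5 sites went from 97.6% to 33.3%. At chr22:11814098-11814125, 3714067 bases before OR11H1, 5 sites went from 94.7% to 30.5%. The lowest level after a loss among the 10 was 4.17%, from 65.8%, over 8 sites at chr18:78605469-78605519 between GALR1 and the zinc finger gene SALL3. At chr7:436608-436635, between FOXL3 and the growth factor gene PDGFA, 8 sites went from 78.7% to 15.8%. In 6 of the 10 losses the knockout mean was between 27.9% and 33.3%. Whether all 3 knockout libraries had such a level, or a single library kept its methylation, cannot be told from group means.

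**Figure D4:**
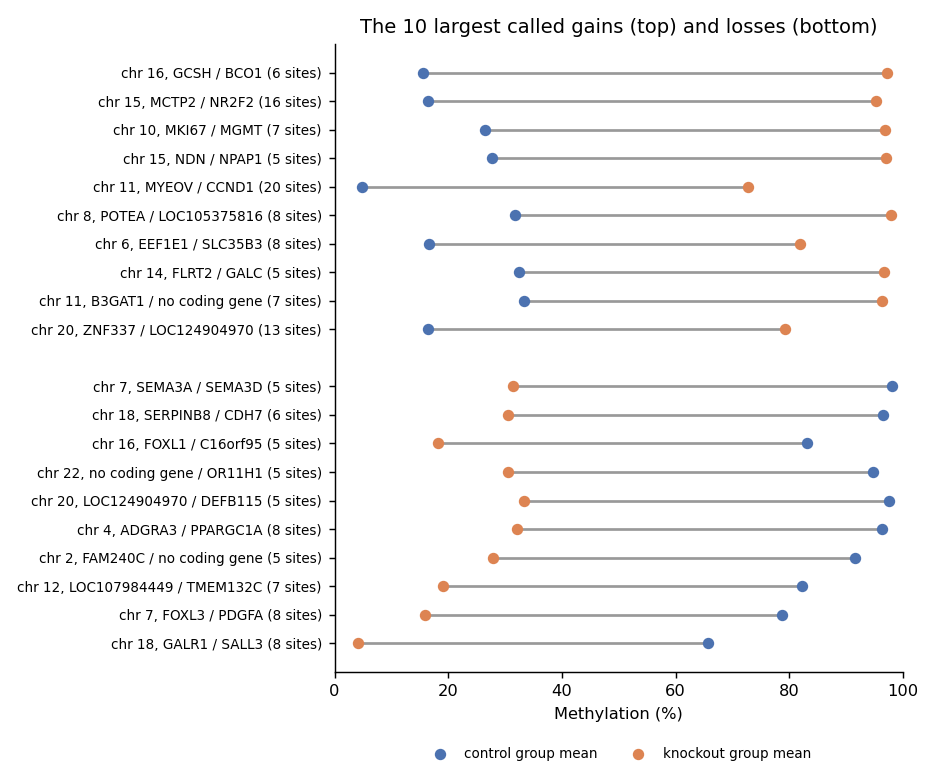
Each row is 1 of the 10 largest called gains (top) or losses (bottom), labelled by chromosome, flanking coding genes and number of sites, with the control and knockout group means in percent methylation joined by a line. Gains start at 33.3% or less and 7 of them end at 95% or more, and losses start at 65.8% or more.

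The members with the most sites had low control means and intermediate knockout means. At chr5:1594221-1594524, in the pseudogene SDHAP3, a copy of a gene of the mitochondrial succinate dehydrogenase, 45 sites went from 4.32% to 36.1% (q = 9.19e-05 in the authors' deposited table). At chr5:16991054-16991335, between MYO10 and BASP1, 40 sites went from 6.44% to 48.6% (q = 2.58e-07). At chr14:101705684-101706076, in LINC02320 beyond the imprinted deiodinase gene DIO3, 38 sites had 0 and 31.5%, with q = 1. At chr2:128737055-128737322, between HS6ST1 and RAB6C, 35 sites had 0 and 35.7%, also with q = 1. For these 2 the deposited Mann-Whitney p-values were 1.37e-05 and 5.47e-07, whereas the Kolmogorov-Smirnov p was 1 for both. The start of LOC105372969 printed above, with 37 sites, was the remaining member of these 5, and it was called. Differences of 28.5 to 42.2 points thus carried q-values from 2.58e-07 to 1 at 35 to 45 sites.

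Inside a non-coding gene or pseudogene lay 1116 members, and 61 of these were called (5.47%), 46 higher and 15 lower. Among the 2115 members inside no annotated gene, 90 were called (4.26%). The 814 members in lncRNA genes had medians of 12.4% in the control and 32.3% in the knockout, with 43 called (5.28%), 33 of them higher. The 294 members in pseudogenes had a lower control median, 6.03%, and a knockout median of 32.5%, with 19 called (6.46%), 14 of them higher. Each of these shares was below the 6.74% called over all regions. Among the called members in non-coding genes, 10 sites in the pseudogene LOC647996 at chr2:131828822-131828867 went from 16% to 78.7%. At chr1:38433759-38433793, in LOC105378657 and 386966 bases from POU3F1, a POU factor of nerve sheath cells, 7 sites went from 65.2% to 10.4%. Reads from a pseudogene or recent duplicate can be hard to place, and the authors' handling of reads with several matches is not given in the sources used.

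Ribosomal RNA genes on chromosome 21 held 19 members, in 3 annotated copies of the 45S unit. Their medians were 6.13% in the control and 10.2% in the knockout, so the knockout median was far below that of the members as a whole. A single rRNA member was called, at chr21:8435868-8435886 in RNA45SN1, at 9.55% in the control against 53.8% without DNMT3B (q = 0.00013). The copies are nearly identical in sequence, so the copy that a read came from is uncertain.

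MicroRNA genes lay within 1000 bases of 14 members, 2 of them called, where 6.74% of all regions were called. These 14 members are too few for a comparison with that share. Of the 2 called, 1 was the rRNA member in RNA45SN1 given above. The microRNA genes numbered 11, with 15 mature miRNAs and 13 different seeds, the bases 2 to 8 that pair with targets. The mature sequences of 4 are printed from RefSeq with the seed in capitals, the first 2 because a member overlaps part of their hairpin, the third because a member near it was called, and the last because it lies in a locus described below.
hsa-miR-187-3p: uCGUGUCUuguguugcagccgg
hsa-miR-9901: cGGUCGCCgcgguucgccgcc
hsa-miR-6080: uCUAGUGCgggcguucccg
hsa-miR-133a-3p: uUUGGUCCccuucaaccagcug
The member that overlaps MIR187 had 0 in the control and 29.8% in the knockout, and the one that overlaps MIR9901 had 0 and 32.9%. Neither was called, and both showed the common combination of a control mean of 0 with a knockout mean of 25 to 33.3%. Near MIR6080, 28 sites at chr17:64779698-64779990 went from 8.33% to 44.8% (q = 0.000515 in the authors' deposited table). A second member near MIR6080, 5 sites at chr17:64781481-64781496, had 1.197% and 3.87% and was not called (q = 0.126). The member beside the gene of miR-133a, a muscle miRNA, had 0 in the control and 22.4% in the knockout and was not called. The 4 printed seeds differ from each other.

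Members were mostly alone. Joined at gaps of up to 10000 bases, they formed 2395 loci, of which 1918 held 1 member and 477 held the other 1313. Of the 151 called members, 79 stood alone. Beside the other 72 lay 282 members, of which 169 had a difference of the same sign as the called one. Only 9 loci held more than 1 called member, and in 5 of these both directions were called. Of 435 adjacent pairs within 1000 bases, 238 had the same sign, and among the 102 pairs in which both differed by at least 25 points it was 57. The signs of close neighbours were thus split almost evenly between alike and opposite. Since 72.7% of all members were higher in the knockout, unrelated signs would be alike in more than an even share of pairs. A departure from that was not tested, and how the authors set the region boundaries is not given.

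The locus between ALG10 and ALG10B, next to the centromere of chromosome 12 (chr12:34334294-34351944), held 15 members, 6 higher and 9 lower in the knockout. Its 3 called members went from 35.4% to 97.9%, from 28.04% to 65.8% and from 89.7% to 43.2%. The locus between GATA5, a heart and gut GATA factor, and SLCO4A1 (chr20:62550948-62587915), which contains the host gene of miR-133a, held 14 members, 8 higher and 6 lower. Its 3 called members were all higher: from 39.1% to 78.2%, from 42.8% to 74.6% and from 23.3% to 82.6%. The locus with the most members, between TTC34 and ACTRT2 (chr1:2876072-2933960), had 18, 14 higher and 4 lower. Its 2 called members went from 6.51% to 60.1% and from 21.4% to 71.9%. The locus between CFAP46 and ADGRA1 (chr10:133007673-133031882) held 14 members with 8 higher and 6 lower, none of them called. The locus between FOXL3 and PDGFA (chr7:408766-441342) also held 14, with 11 higher and 3 lower, and the large loss given above was its called member.

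**Figure D5:**
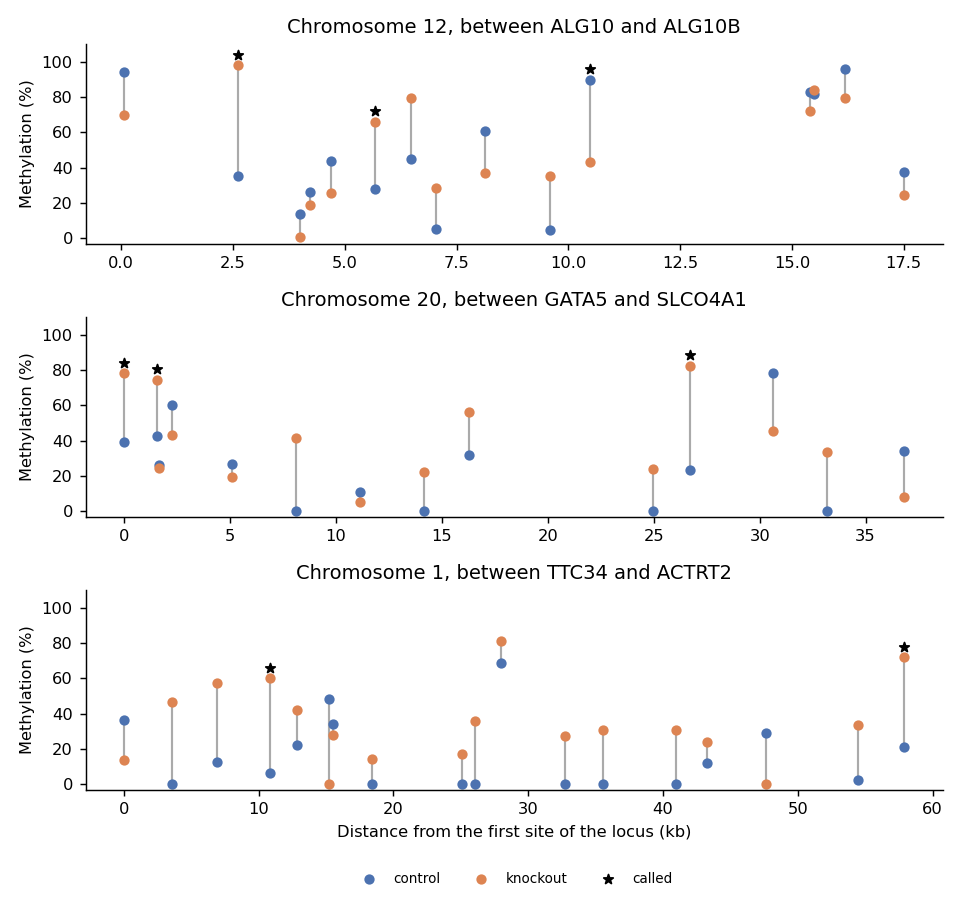
Each panel is 1 locus of neighbouring members, with distance from its first site in kb on the horizontal axis and the control and knockout group means, in percent methylation, on the vertical axis; called members are marked. In the ALG10 locus 2 called gains and 1 called loss lie among the same 15 members, whereas the 3 called members of the GATA5 locus are all gains.

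Opposite calls close together were also found in other loci. In the LBX1 locus, the loss at the start of LOC105378453 (chr10:101284338-101284382) shared the locus with a gain at chr10:101291720-101291749. That gain went from 16.9% to 47.5% in the authors' deposited table. The member next to the gain, 12 sites at chr10:101291766-101291801, had 1.35% and 1.18% and was not called. Between ABHD5 and TOPAZ1 on chromosome 3 (chr3:43995668-43999108, 6 members), 1 called member fell from 61.4% to 7.60% and another rose from 8.11% to 70.9%.

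The coding genes on either side of the members were described by 5 lists of genes that often stand beside wide gaps, as landmarks only. Developmental transcription factors flanked 368 members, and 16 of these were called (4.35%), 10 higher and 6 lower, with medians of 15.2% and 31.4%. Of the 166 listed factors 76 flanked a member and 13 a called one. Signalling ligands, receptors and inhibitors of development flanked 185 members, with 7 called (3.78%), 6 of them higher, and medians of 11.1% and 32.9%. Neuronal adhesion, guidance and synapse genes flanked 239, with 15 called (6.28%), 12 of them higher, and a control median of 6.67% and a knockout median of 32.8%. The shares of these 3 lists were below the background of 6.74% over all regions.

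Among the developmental factors, the called differences of members flanked by NR2F2, FOXL1 and SALL3 are given above. Beside LHX5, a LIM homeobox gene of the forebrain, 5 sites at chr12:113591858-113591867 went from 15.2% to 76.6%. Among the signalling genes, the sites at chr1:22342348-22342369, 199251 bases from WNT4 and 86540 from ZBTB40, went from 44.2% to 96.4%. At chr4:153984034-153984068, between SFRP2, which encodes a secreted Wnt inhibitor, and DCHS2, they went from 61.9% to 97.2%. Among the neuronal genes, 9 sites at chr5:26485558-26485594, between the cadherin genes CDH10 and CDH9, went from 7.41% to 66.4%.

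Genes of megakaryocytes, erythroid cells, progenitors and myeloid cells, the lineages nearest to M07e, flanked 56 members through 20 of 57 listed genes. Of these members, 4 were called (7.14%), 2 in each direction, and the medians were 16.8% and 32.1%. The share over all regions was 6.74%, near that of this list, which rests on few members. At chr12:4164671-4164834, 108928 bases from the nearest gene in the interval before the cyclin D2 gene CCND2, 20 sites went from 26.0% to 65.5%. At chr3:168249948-168249979, in EGFEM1P between GOLIM4 and MECOM, the gene of the stem cell factor EVI1, the sites went from 18.6% to 47.0%. MECOM was 833528 bases away and GOLIM4 154024. At chr3:128555166-128555274, 61965 bases from a coding gene in the interval between GATA2, a factor of stem cells and megakaryocyte precursors, and RPN1, 12 sites went from 49.4% to 23.7% (q = 0.00114 in the authors' deposited table). At chr12:11500680-11500733, 148941 bases before the ETS repressor gene ETV6 and 105113 from PRB2, 18 sites went from 63.3% to 36.3%. Tandem gene families flanked 76 members, with 5 called (6.58%, also near 6.74%), 4 higher and 1 lower. Between the zinc finger genes ZNF479 and ZNF716, at chr7:57256710-57256982, a called member went from 21.03% to 70.6%. The loss, from 62.3% to 17.4%, was at chr9:41074148-41074401 in the pseudogene PGM5P2. In the same locus, 17 sites at chr9:41074812-41074898 went the other way, from 42.9% to 72.8%, and were called. The member between them had 35.3% in the control and 31.5% in the knockout and was not called.

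Chromosomes differed in their counts of members and of calls. Chromosome 2 had the most members, 248, with 6 called (2.42%), and chromosome 19 had 27, with 2 called. Chromosomes 18 and 3 had the largest shares called among the autosomes with over 100 members, with 11 of 126 (8.73%) and 11 of 129 (8.53%). The share over all regions was 6.74%. These 2 chromosomes were picked as extremes, and each share rests on few calls. Within 5000000 bases of the longest stretch without genes, which on most autosomes holds the centromere, 32 of 514 members were called (6.23%), 24 higher and 8 lower. Elsewhere it was 119 of 2717 (4.38%). Other autosomal regions near those stretches were called in 86 of 1334 (6.45%), close to the share of the members there. Medians of members near the stretches were 12.8% and 32.4%, against 12.4% and 32.3% elsewhere. This split was made after the values had been seen. The flanks of chromosome 20 gave 6 of the 32 calls, from 59 members, and those of chromosomes 9 and 7 gave 4 each, from 32 and 30. Such counts are small, and differences between chromosomes were not tested.

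The members farthest from coding genes were 5 regions of chromosome 22 between chr22:10525658-10525749 and chr22:11053784-11054048, before its first coding gene, OR11H1. Their control means were 0, 32.9%, 0, 2.01% and 36.8% in order of position, and their knockout means 31.5%, 63.5%, 28.7%, 31.4% and 64.7%. All 5 were higher in the knockout, by 27.9 to 31.5 points. The one called, at chr22:10741783-10742051, had 26 sites and q = 0.00452 in the authors' deposited table, and it lies at the start of LOC105379418.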

How the data were processed

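RRBS was run on 6 libraries of M07e cells, 3 control and 3 DNMT3B knockout. Per the submitters' processing notes, methylKit, Bismark, HISAT2, Trimmomatic and FastQC were used with build hg38 (no versions or roles stated). No program is named in the sources used here for the region table. Per the file headers, the authors deposited a methylation level in percent for each group, the difference in percentage points, 2 p-values (Mann-Whitney and 2-dimensional Kolmogorov-Smirnov), a q-value and the number of CpG sites of each region. Depth and single libraries were not analysed here. The deposited difference equalled the knockout mean minus the control mean within 0.01 points in 3229 of the 3231 members and did not in 2.

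The design set for a table of group means was followed: no new test was made, a region was called at a deposited q under 0.01 and a difference of at least 25 points, and sets of regions were described by counts and medians. A q under 0.01 is not read as an error rate, since how q was derived is not given. Of the members, 1839 had a q of 1, and 35 of the 186 with q under 0.01 differed by less than 25 points. Distances were taken to the spans of 19879 coding genes (RefSeq, GRCh38.p14). The annotation lists genes of unplaced and alternate sequences under a chromosome's name, so 794 entries out of positional order, 177 of them coding, were left out. Coordinates are 1-based on hg38, and with that reading all 3190 region starts inside the promoter windows fell on a C or G of a CpG.

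The text names the 10 largest called gains and losses, called members in non-coding genes, the members with the most sites or the largest distance, the loci with the most members or calls, called members beside listed genes, and values around each threshold. Promoter starts, miRNAs and the stretches without genes were added to that rule. Some members that the rule names are not reported here. The members and gene lists were chosen with earlier results of these data known. Scripts (Python 3.11.15, pandas 2.3.3, numpy 2.4.6) were tested on simulated regions. Alternatives to the q and difference thresholds, the deposited p-values, the distance, the minimum of sites and the gene classes were computed.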

Additional observations from a re-analysis of the deposited data

How the results depend on the processing

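The median difference stayed above 0 and gains outnumbered losses under every alternative computed. With a difference of at least 40 points in place of 25, 98 members were called, 66 of them higher. At q under 0.05 it was 273 (196 higher, 77 lower), and at q under 0.001 it was 62 (51 and 11). Benjamini-Hochberg adjustment of the Kolmogorov-Smirnov p-value called 88 (66 and 22). Beyond 25000 bases from coding genes 231 regions were called (168 and 63), with a knockout median of 32.1%, and beyond 100000 bases 95 of 2031 (69 and 26). With at least 10 sites, 67 of 624 were called (49 and 18, 10.7%), and the medians were 6.51%, 32.6% and a difference of 29.9 points. Of 515 regions over 50000 bases from any gene, coding or not, 16 were called (12 and 4, 3.11%), with a knockout median of 32.1%. Without regions with a group mean of 0, the control median was 26.6%, the knockout median 35.9% and the median difference 14.2 points, and 7.53% were called, a share added after seeing the data. Without the combination of a group mean of 0 and 25 to 33.3% in the other, they were 21.8%, 34.4% and 16.4 points. Weighted by sites, the control median was 10.7% and the median difference 26.6 points. The naming rule with its additions picked 74 called members, some of which are not reported here. Of these 74, 51 kept the call at 40 points, 36 at q under 0.001 and 50 with the adjusted Kolmogorov-Smirnov p-value.

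A minimum of 10 points, adjustment of the Mann-Whitney p-value, no minimum of sites, adding X, and merging regions within 1000 bases moved no count by over 1.5 times. The same held for 2 other alternatives chosen after seeing the data: keeping the genes left out of the annotation at their listed positions, and leaving out members within 5000000 bases of the gene-free stretches. No paired analysis was possible because the table holds 1 mean per group, and leaving out single libraries was not run for that reason. Depth limits every value to an unknown extent.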

Other observations

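On the X chromosome, which the choice of autosomes left out, 139 regions of at least 5 sites lay more than 50000 bases from every coding gene. Their medians were 12.2% in the control and 31.9% in the knockout, close to the 12.4% and 32.3% of the autosomal members. Of these, 8 were called (5.76%), 7 higher and 1 lower in the knockout. The 964 X regions inside or nearer to coding genes had medians of 8.35% and 27.9%, with 41 called (4.25%), 27 higher and 14 lower. A further 15 autosomal regions far from coding genes had under 5 sites, with a median of 33.3% in both groups, and none of them was called at q under 0.01 and 25 points.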
